A study of Gallus gallus with 6 samples.

Results

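The collagen genes of chicken neural crest cultures were examined through every probe set of the expression array whose annotation gave exactly 1 symbol of the form COL, a number, A and a number, with COL17A1 left out. This gave 120 probe sets for 40 genes, out of 38535 probe sets and 13009 annotated genes on the array. They were divided by collagen type into 31 fibrillar probe sets (types I, II, III, V and XI), 22 basement membrane probe sets (types IV, XV and XVIII) and 67 for other types. The 6 arrays fall into 2 groups of 3. In the v-Myb group, the cells came from explanted neural tubes of Brown Leghorn embryos (stage 10 to 13) and had been exposed to retrovirus coding for v-Myb-L3,4A-HAER. This is a v-Myb oncoprotein, a transcription factor, whose leucine zipper is mutated and which becomes active with 4-OH-tamoxifen. In the N118D group the virus coded for v-Myb-L3,4A-N118D-HAER, which carries the further substitution N118D in the DNA-binding domain. Cells of both groups grew on dishes coated with collagen protein, were freed of the explanted tube after 3 days and were given 4-OH-tamoxifen at 200 nM, which lasted 4 hours. Hence no array shows untreated cells. The question is which transcripts depend on an intact Myb DNA-binding domain. The titles call the arrays biological replicates but do not tie them to separate embryo pools, and the p-values given here cover only the spread between these samples.

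Collagens are secreted or membrane proteins built of 3 chains that wind into a triple helix. Fibrillar collagens form the banded fibrils of connective tissue, type IV collagen forms the sheet-like network of basement membranes, and other types decorate fibrils, form beaded microfilaments or span the cell membrane. Neural crest cells cross a collagen-containing matrix when they migrate, and cranial crest also gives rise to mesenchyme that lays down collagen.

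The arrays were close in overall scale, with medians of 3.08 to 3.12 on the log2 scale of the deposited values. All 6 neural crest markers and all 6 pigment cell markers looked up reached the minimum for testing, which was a value of 4 on at least 3 arrays. Epithelial markers did so in 6 of 7 genes with a probe set, and markers of neurons and neural tube in 7 of 8. For endothelium it was 4 of 5 genes and for muscle 3 of 5. The cultures therefore held transcripts of several cell classes, and in such bulk RNA fewer cells of a type cannot be told apart from less RNA per cell. Of 9 mesenchymal markers 4 were tested (TWIST1, PRRX1, PDGFRB and FOXC2), while PDGFRA, TCF21, MEOX1, TBX18 and FOXC1 stayed under the minimum.

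Of the 120 collagen probe sets 46 were tested, or 38.3%, against 43.0% of the 38439 probe sets without controls. These 46 represented 25 of the 40 genes, namely all 7 fibrillar genes, 4 of 8 basement membrane genes and 14 of 25 others. Where a gene had several tested probe sets, the one with the highest mean stands for the gene unless stated otherwise. The 74 probe sets that were not tested held values between 1.55 and 4.68, and 68 of them never reached 4. No probe set of COL4A3, COL4A4, COL4A6 or COL15A1 was tested among the basement membrane genes. In the remaining class the same was true of COL6A6, COL7A1, COL9A1, COL9A2, COL10A1, COL19A1, COL20A1, COL21A1, COL25A1, COL26A1 and COL28A1. Several genes with a bright probe set also had dim ones. COL1A2 had 4 tested probe sets and 4 others that stayed between 2.09 and 3.25, so a dim probe set does not show that a transcript is missing.

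**Figure D1:**
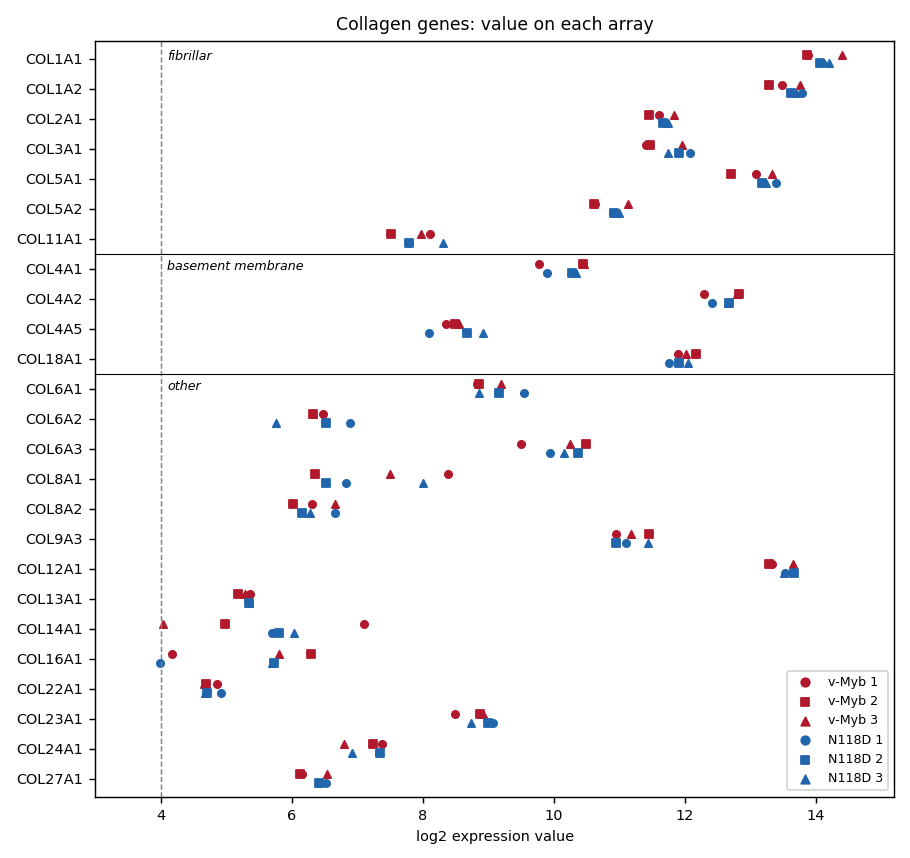
Log2 expression values (horizontal axis) of the 25 tested collagen genes, 1 probe set per gene, with a point for each of the 6 arrays, red for v-Myb and blue for N118D, the symbol shape giving the replicate number. The dashed line marks the minimum of 4. The groups overlap for every gene shown, and levels are not comparable between genes because each comes from its own probes.

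Fibrillar collagen transcripts were bright in both groups, and for all 7 genes the mean of the v-Myb arrays lay below that of the N118D arrays. The log2 differences, with the N118D mean subtracted from the v-Myb mean, were between -0.07 and -0.30, and the 95% interval of each included 0. COL1A1 and COL1A2 code for the chains of type I collagen, the main fibril of skin and bone. COL1A1 had log2 values of 13.89, 13.86 and 14.41 on v-Myb arrays 1, 2 and 3 and of 14.10, 14.07 and 14.20 on N118D arrays 1, 2 and 3. Its v-Myb values thus lay on both sides of the N118D values, and the means were 14.05 ± 0.31 and 14.12 ± 0.07 (SD, n = 3 each), which differ by -0.07 (standard error 0.16). COL1A2 was measured at 13.49, 13.28 and 13.76 in v-Myb and at 13.79, 13.62 and 13.70 in N118D cultures. Here 2 of the 3 v-Myb arrays lay below all N118D arrays, and the difference was -0.19 (standard error 0.14). The 3 further COL1A2 probe sets differed by -0.12, -0.29 and -0.30. For the dimmest of them the groups did not overlap, with 5.56, 5.20 and 5.63 in v-Myb against 5.89, 5.67 and 5.74 in N118D cultures.

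Type III collagen, a homotrimer of COL3A1 chains that is found with type I in soft tissue, showed the largest difference of the fibrillar genes. COL3A1 was at 11.40, 11.47 and 11.96 in v-Myb and at 12.08, 11.92 and 11.75 in N118D cultures. Only v-Myb replicate 3 reached into the N118D range, and the difference was -0.30 (standard error 0.18) and a 95% interval from -0.74 to 0.13. A further COL3A1 probe set was at 8.98, 8.84 and 9.40 in v-Myb and at 9.67, 9.38 and 9.36 in N118D cultures, a difference of -0.40 (standard error 0.17). The other two, both dimmer, differed by only -0.07 and -0.0039, so the probe sets of this gene did not give 1 size.

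COL5A1 and COL5A2 code for chains of type V collagen, which is built into type I fibrils and limits their width. COL5A1 had values of 13.09, 12.71 and 13.34 in v-Myb and of 13.39, 13.18 and 13.23 in N118D cultures, a difference of -0.23 (standard error 0.17). A further COL5A1 probe set, nearly as bright, differed by -0.10. COL5A2 was at 10.62, 10.62 and 11.14 in v-Myb and at 10.90, 10.92 and 10.99 in N118D cultures, a difference of -0.14 (standard error 0.16). For COL5A2 v-Myb replicates 1 and 2 were below every N118D array and v-Myb replicate 3 above every one, the same order as in COL1A1. COL5A2 and COL3A1 are direct neighbours among the protein-coding genes of the RefSeq assembly GRCg7b. The dimmer COL5A2 probe set spread further, from 6.18 to 7.38 within the v-Myb group, and differed by -0.33.

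Type II and type XI collagen are best known from cartilage fibrils. COL2A1 was at 11.61, 11.46 and 11.84 in v-Myb and at 11.70, 11.66 and 11.75 in N118D cultures, a difference of -0.07 (standard error 0.11). A dimmer COL2A1 probe set differed by -0.20. COL11A1 was at 8.10, 7.52 and 7.98 in v-Myb and at 7.79, 7.78 and 8.30 in N118D cultures, a difference of -0.09 (standard error 0.21). The groups overlapped for both genes. The other COL11A1 probe sets did not have the same sign, with differences of 0.15 and -0.24. The former was the only fibrillar probe set with a mean above that of N118D cultures.

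Among the 18 fibrillar probe sets 17 had a lower mean in v-Myb cultures, with a median difference of -0.17. Over all 16526 probe sets tested 50.8% were lower, with a median of -0.0018. The probe sets of 1 gene, and genes measured on the same arrays, are not independent, and the count rests on few arrays. Without v-Myb replicate 2 the count was 12 of 18 and the median -0.066. When v-Myb replicate 3 was left out these were 18 of 18 and -0.31. The mean deviation of the 7 genes from their means over all arrays was -0.12, -0.31 and 0.19 on v-Myb arrays 1, 2 and 3, and 0.10, 0.01 and 0.12 on N118D arrays 1, 2 and 3. The lowest value was on v-Myb replicate 2 in 6 of the 7 genes, whereas that array was lowest in 18.6% of all probe sets tested. Epithelial markers were also lowest on v-Myb replicate 2, with a mean level of 8.49 over 7 genes, while pigment cell markers were highest there at 11.93. The epithelial level was 9.74 on v-Myb replicate 1, 9.07 on v-Myb replicate 3 and 9.61 to 10.03 on the N118D arrays. It was thus lower on v-Myb replicate 3 than on v-Myb replicate 1, the reverse of the fibrillar genes. All 4 tested mesenchymal markers had a lower mean in v-Myb cultures, with a median difference of -0.10. Other marker lists had larger medians. The median was -0.96 for epithelium (6 of 6 lower) and -0.33 for neurons and neural tube (6 of 7 lower). It was 0.46 for pigment cells and 0.23 for neural crest (6 of 6 higher in each). PDGFRB, a receptor for platelet-derived growth factor, differed by -0.28 without overlap of the groups. Such a lack of overlap was seen in 5.74% of all probe sets tested. In TWIST1, PRRX1 and FOXC2 the groups overlapped, with differences of -0.11, -0.09 and -0.01. Relative to their means, the 4 tested mesenchymal genes stood at -0.08 to -0.04 on the v-Myb arrays and at -0.23 to 0.35 on the N118D arrays. The part of these cell classes in the fibrillar values was not tested. The v-Myb arrays were more dispersed than the N118D arrays in all 7 fibrillar genes, with a median SD of 0.30 against 0.09, where 61.5% of all probe sets had the larger SD in v-Myb cultures.

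**Figure D2:**
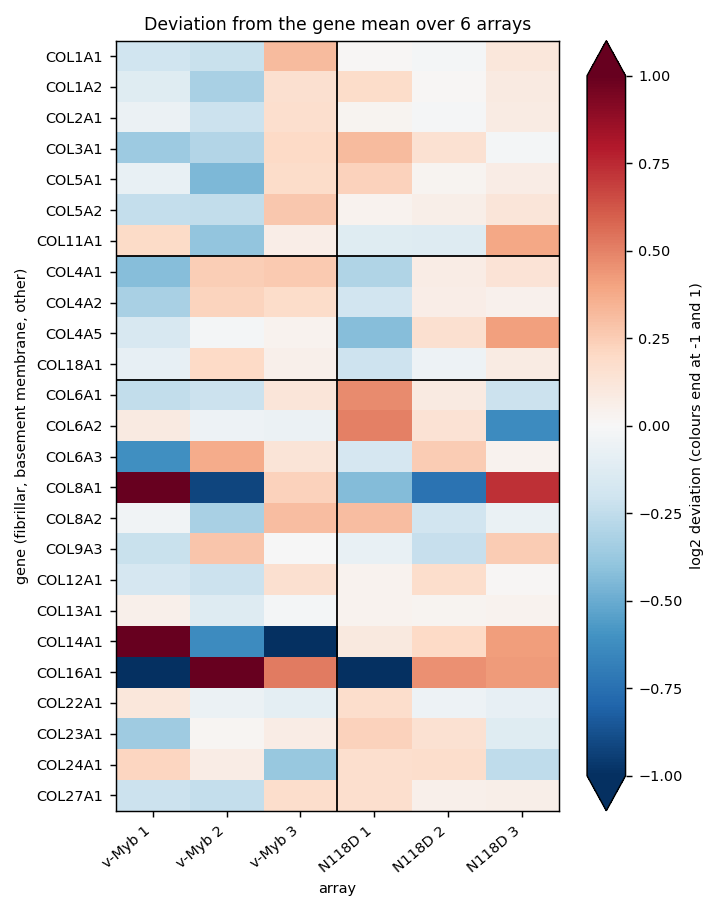
Deviation of each collagen gene (rows, 25 tested genes in the order fibrillar, basement membrane, other) from its own mean over the 6 arrays (columns), in log2 units, with colours ending at -1 and 1. The fibrillar genes are mostly low on v-Myb replicates 1 and 2 and high on v-Myb replicate 3, and the 4 basement membrane genes are low on both arrays numbered 1.

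The basement membrane collagens had differences between -0.10 and 0.11, with 3 of the 4 tested genes above 0. COL4A1 and COL4A2 code for the chains of the type IV collagen that is present in nearly all basement membranes, and the genes are direct neighbours in GRCg7b. COL4A1 was at 9.78, 10.45 and 10.46 in v-Myb and at 9.90, 10.28 and 10.34 in N118D cultures, a difference of 0.06 (standard error 0.23). COL4A2 was at 12.29, 12.83 and 12.79 in v-Myb and at 12.42, 12.68 and 12.66 in N118D cultures, a difference of 0.05 (standard error 0.17). Both genes were lowest on v-Myb replicate 1, next lowest on N118D replicate 1 and higher on the other 4 arrays. The other COL4A2 probe sets differed by 0.07, 0.16 and -0.03. The last of these broke the pattern, at 7.03, 8.35 and 8.49 in v-Myb and 8.16, 7.87 and 7.94 in N118D cultures.

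COL4A5, a further type IV chain, was at 8.36, 8.49 and 8.55 in v-Myb and at 8.09, 8.68 and 8.92 in N118D cultures, a difference of -0.10 (standard error 0.22). A dimmer COL4A5 probe set differed by -0.01 and had both arrays numbered 1 highest, where the brighter one had them lowest. COL18A1, whose protein carries the endostatin fragment at its end, was at 11.89, 12.17 and 12.02 in v-Myb and at 11.77, 11.92 and 12.05 in N118D cultures. The groups overlapped, and the difference was 0.11 (standard error 0.11) and a 95% interval from -0.17 to 0.39. The median over the 8 basement membrane probe sets was 0.06, and its sign depended on single arrays. It was -0.04, -0.048 and -0.026 without N118D replicate 1, v-Myb replicate 2 and v-Myb replicate 3. It was 0.26 without v-Myb replicate 1, 0.11 without N118D replicate 2 and 0.12 without N118D replicate 3.

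The 2 arrays numbered 1 stood apart in these genes, a pattern noticed after the values had been seen. The separation was not confined to collagens. Over all probe sets tested, both lay above the other 4 arrays in 18.3% and below them in 17.9%. In all 4 basement membrane genes, and in 6 of the 8 probe sets, both arrays numbered 1 lay below the other 4, against 17.9% of all probe sets tested. The class stood at -0.25 on v-Myb replicate 1 and -0.28 on N118D replicate 1, while the other arrays ranged from 0.06 to 0.17. None of the 18 fibrillar probe sets had this order. Among the remaining genes COL6A3 and COL16A1 had it, as did 2 of the 3 COL12A1 probe sets. These made up 4 of the 20 probe sets of that class, or 20%, near the 17.9% of all probe sets tested. Both arrays numbered 1 lay above the other 4 in COL13A1, COL22A1 and 1 probe set of COL24A1. That is 3 of 20, or 15%, against 18.3%. Of the 5 cartilage markers 2 were tested, and SOX9, ACAN and MATN3 were under the minimum. MATN1 was at 5.20 and 5.25 on the arrays numbered 1 and between 6.595 and 7.46 on the others, whereas HAPLN1 did not have this order, with 11.90 on N118D replicate 1 and 11.85 on v-Myb replicate 2. Endothelial markers stood at -0.17 on v-Myb replicate 1 and 0.22 on N118D replicate 1, and between -0.20 and 0.09 on the others. Muscle markers stood at 0.17 and -0.04 on the arrays numbered 1 and between -0.31 and 0.18 on the others. The part of cartilage, endothelial or muscle transcripts in the basement membrane values was not tested. The labels do not say whether arrays of 1 number shared a day or batch of embryos.

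The genes outside these classes had differences between -0.47 and 0.29, with 11 of 14 lower in v-Myb cultures. Over all probe sets tested 50.8% were lower. Type VI collagen forms beaded filaments from 3 different chains. COL6A1 was at 8.82, 8.85 and 9.19 in v-Myb and at 9.54, 9.16 and 8.86 in N118D cultures, a difference of -0.23 (standard error 0.20). On its second probe set the groups did not overlap, with 8.16, 8.08 and 8.22 in v-Myb and 8.85, 8.35 and 8.22 in N118D cultures. The highest v-Myb and the lowest N118D value of that probe set are equal to 2 decimals, and the difference was -0.32 (standard error 0.17). COL6A2, the neighbour of COL6A1 in GRCg7b, was at 6.48, 6.33 and 6.32 in v-Myb and at 6.89, 6.53 and 5.76 in N118D cultures. It was high on N118D replicate 1 and low on N118D replicate 3, as COL6A1 was within its group, and its difference was -0.02. COL6A3 had another order, at 9.50, 10.49 and 10.25 in v-Myb and at 9.95, 10.37 and 10.15 in N118D cultures, a difference of -0.08 (standard error 0.27).

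Types XII and XIV collagen sit on the surface of fibrils. COL12A1 was steady on its brightest probe set, at 13.33, 13.28 and 13.65 in v-Myb and at 13.53, 13.67 and 13.51 in N118D cultures, a difference of -0.15 (standard error 0.12). Its 2 other probe sets varied more, over 1.09 and 1.36 log2 units, with both arrays numbered 1 lowest and differences of -0.06 and -0.21. COL14A1 had the widest range of all tested collagen probe sets. It was at 7.10, 4.98 and 4.04 in v-Myb and at 5.70, 5.81 and 6.03 in N118D cultures. The v-Myb arrays thus lay above and below a narrow N118D range, and the difference of -0.47 had a standard error of 0.76. The second COL14A1 probe set was at 4.90, 4.38 and 4.11 in v-Myb and at 5.0, 4.81 and 5.27 in N118D cultures. Its difference of -0.56 (standard error 0.23) was the largest among the collagen probe sets, and only v-Myb replicate 1 reached into the N118D range. Without v-Myb replicate 1 the differences of both probe sets were -1.34 and -0.78, with an adjusted p of 0.495 for each in limma, and without v-Myb replicate 3 the first was 0.19.

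**Figure D3:**
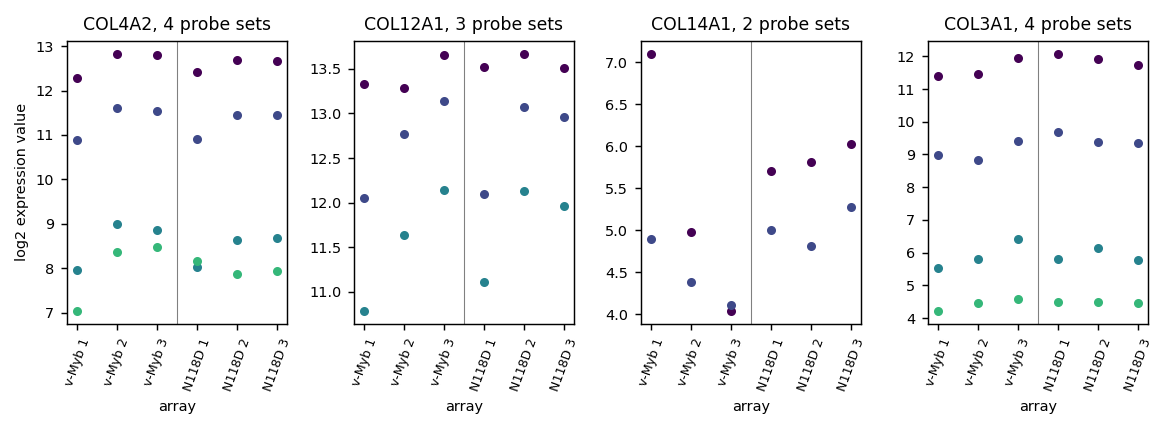
Log2 expression values (vertical axis, scaled for each panel) on the 6 arrays for every tested probe set of COL4A2, COL12A1, COL14A1 and COL3A1, 1 colour per probe set. The 2 dimmer COL12A1 probe sets are lowest on both arrays numbered 1 while the brightest is nearly level, and the brighter COL14A1 probe set runs from 7.10 to 4.04 within the v-Myb group.

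COL8A1 and COL16A1 also varied more between arrays than between groups. COL8A1, a short-chain collagen that forms networks, was at 8.38, 6.35 and 7.50 in v-Myb and at 6.83, 6.52 and 8.0 in N118D cultures. It was highest on v-Myb replicate 1 and N118D replicate 3, and the difference of 0.29 had a standard error of 0.61. Without v-Myb replicate 1 this difference was -0.20. As a mean over 7 tested genes, markers of neurons and neural tube were also highest on these 2 arrays. They stood at 1.32 and 0.54 relative to their means, against -1.10 to 0.17 on the others. TUBB3 and SOX3 did not have this order. On v-Myb replicate 3, where COL8A1 was at 7.50 and COL14A1 at 4.04, the markers stood lowest, at -1.10. Their part in the COL8A1 and COL14A1 values was not tested. COL16A1, a fibril-associated collagen, was at 4.17, 6.29 and 5.80 in v-Myb and at 3.98, 5.74 and 5.70 in N118D cultures. Both arrays numbered 1 were near the minimum, and the difference of 0.28 had a standard error of 0.71, and it was -0.30 without N118D replicate 1 and -0.16 without v-Myb replicate 2.

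The remaining tested genes varied less between arrays than COL8A1 and COL16A1. COL9A3, a chain of the fibril-associated type IX collagen, was between 10.95 and 11.46 on all arrays and differed by 0.04, with 0.08 on a second probe set. COL27A1 and COL24A1 belong to the fibril-forming family by structure but are counted here with the other types. COL27A1 was at 6.15, 6.12 and 6.54 in v-Myb and at 6.53, 6.41 and 6.42 in N118D cultures, a difference of -0.18 with the same order of v-Myb arrays as COL1A1. COL24A1 differed by -0.06 and -0.07 on its 2 probe sets. The transmembrane collagens COL13A1 and COL23A1 differed by -0.06 and -0.17, COL8A2 by -0.03 and COL22A1 by -0.03.

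Across all tested collagen probe sets 36 of 46 had a lower mean in v-Myb cultures, against 50.8% of all probe sets tested. The median difference was -0.07, against -0.0018, with a median standard error of 0.20. Collagen probe sets on the same arrays are not independent, and the count was not tested. In limma 0 of the 46 passed an adjusted p of 0.05, as did 0% of all probe sets tested, and the smallest adjusted p of a collagen probe set was 0.9999. At an unadjusted p under 0.05 the count was also 0 of 46, against 1.91% of all probe sets. The smallest unadjusted p was 0.051, for the second COL14A1 probe set. The groups did not overlap for 2 of 46 (the dimmest tested COL1A2 probe set and the second COL6A1 probe set), a share of 4.35% against 5.74% of all probe sets. A difference of 1.5-fold or more was seen for 0 of the 46, and for 1.29% of all probe sets. These values do not show that the groups are alike, since the 95% intervals of the fibrillar genes reached as far as -0.74 on one side and 0.43 on the other. For the dim and variable genes of other types they ran from -2.33 to 2.04.

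**Figure D4:**
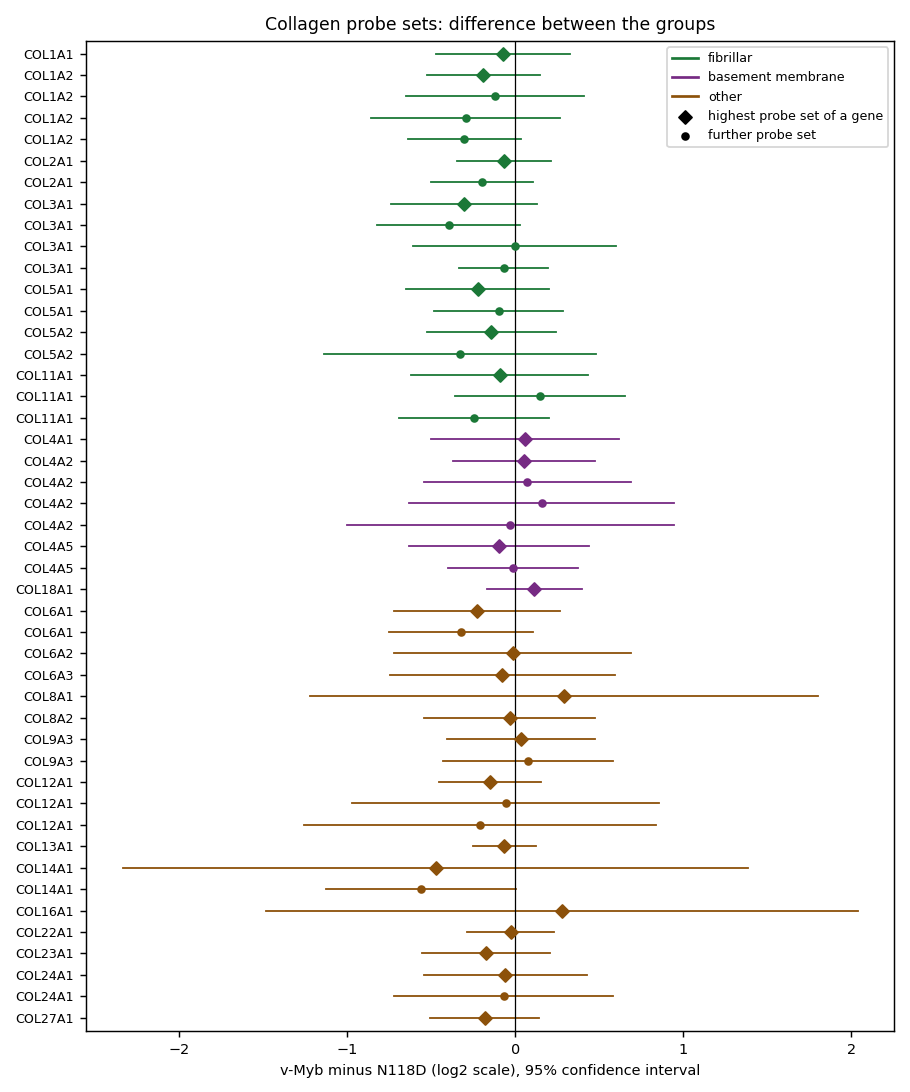
Difference between the group means, v-Myb minus N118D in log2 units (horizontal axis), with its 95% confidence interval from limma for each of the 46 tested collagen probe sets, coloured by class. Diamonds mark the brightest probe set of a gene and circles its further ones. 17 of 18 fibrillar points lie below 0, and the interval of every primary probe set includes 0.

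The fibrillar differences depended on single arrays. Without v-Myb replicate 2 the mean difference of the 7 fibrillar genes was -0.04, against -0.16 with all arrays. Leaving out v-Myb replicate 3, the array on which COL1A1, COL2A1 and COL5A2 were highest, brought 11 of 46 collagen probe sets to an unadjusted p under 0.05 in limma, all of them lower in v-Myb cultures. In that fit 2.09% of all probe sets were lower with such a p. As a set the fibrillar genes were highest on v-Myb replicate 3, at 0.19 relative to their means. Leaving it out therefore lowers their v-Myb mean by construction, and the count is no evidence of a difference. The 11 comprised COL1A1, 3 probe sets of COL1A2, 2 each of COL3A1 and COL5A2, and 1 each of COL5A1, COL12A1 and COL27A1. COL3A1 then differed by -0.48 and COL5A2 by -0.31, with an adjusted p of 0.99996 in limma for both. No probe set on the array passed the adjusted threshold there, and this setting is 1 of 6 arrays left out in turn. Counts in either direction were 3 of 46 without v-Myb replicate 1, where 7.3% of all probe sets had such a p. Without N118D replicate 1 the count was 1 of 46, against 1.88%. It was 0 of 46 without v-Myb replicate 2, N118D replicate 2 and N118D replicate 3, against 1.06%, 1.28% and 1.76%. Of the 3 without v-Myb replicate 1, both COL14A1 probe sets were lower and 1 of COL4A2 was higher in v-Myb cultures.

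Genes that make, modify or bind collagen were looked up as companion lists. Of 28 genes of collagen synthesis and processing 23 had a probe set and 18 were tested, 7 higher and 11 lower in v-Myb cultures, with a median of -0.06. Those with the smallest p were P3H2, a prolyl 3-hydroxylase (-0.32), P4HA1, a subunit of prolyl 4-hydroxylase (0.16), PLOD2, a lysyl hydroxylase (-0.25), COLGALT1, a collagen galactosyltransferase (0.07), and LOXL3, a lysyl oxidase relative (-0.06). P4HA1 was at 10.82, 10.71 and 10.74 in v-Myb and at 10.58, 10.48 and 10.73 in N118D cultures, so it was among the genes with the opposite sign to the fibrillar collagens. PLOD2 was at 13.17, 12.95 and 13.31 in v-Myb and at 13.53, 13.44 and 13.18 in N118D cultures.

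Of 13 fibril-associated proteoglycans and glycoproteins 5 were tested, and all 5 were lower with a median of -0.12 and with overlap of the groups. Over all probe sets tested 50.8% were lower. The 5 were SPARC, a collagen-binding glycoprotein (-0.13), FN1, fibronectin (-0.12), the small proteoglycans LUM (-0.23) and DCN (-0.08), and THBS2, a thrombospondin (-0.03). LUM was at 10.31, 9.94 and 10.82 in v-Myb and at 11.34, 10.49 and 9.95 in N118D cultures, and thus spread over more than 1 log2 unit among N118D arrays. Of 8 collagen receptors 6 were tested, 3 on each side of 0, with a median of -0.05. The integrin chains ITGA2 and ITGA1 differed by -0.52 and -0.30, the receptor kinases DDR1 and DDR2 by -0.10 and 0.01, and the shared chain ITGB1 by 0.01. Receptors stood at -0.11, -0.25 and 0.14 on v-Myb arrays 1, 2 and 3, the same order as in the fibrillar collagens. Among the v-Myb arrays, the other companion lists were lowest on replicate 1 instead. The fibril-associated genes stood at -0.30, -0.25 and 0.38 there, and the genes of synthesis and processing at -0.24, -0.04 and 0.20.

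All 12 partners of type IV collagen in basement membranes were tested, 5 higher and 7 lower with a median of -0.07. The laminin chain LAMA2 was at 5.27, 4.74 and 5.26 in v-Myb and at 5.44, 5.63 and 5.6 in N118D cultures, without overlap, and its difference of -0.46 had an unadjusted p of 0.032 in limma. NID1, a nidogen that links laminin with type IV collagen, differed by -0.22, LAMA4 by 0.44, HSPG2, perlecan, by 0.16 and NID2 by 0.21. These partners did not have the order of the type IV collagen genes, since they stood at -0.09 and 0.01 on the arrays numbered 1 and between -0.02 and 0.07 on the others. In limma 0 of the 41 tested genes of the 4 companion lists passed an adjusted p of 0.05. An unadjusted p under 0.05 was found for 1 of 41, LAMA2, a share of 2.44% against 1.91% of all probe sets.

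**Figure D5:**
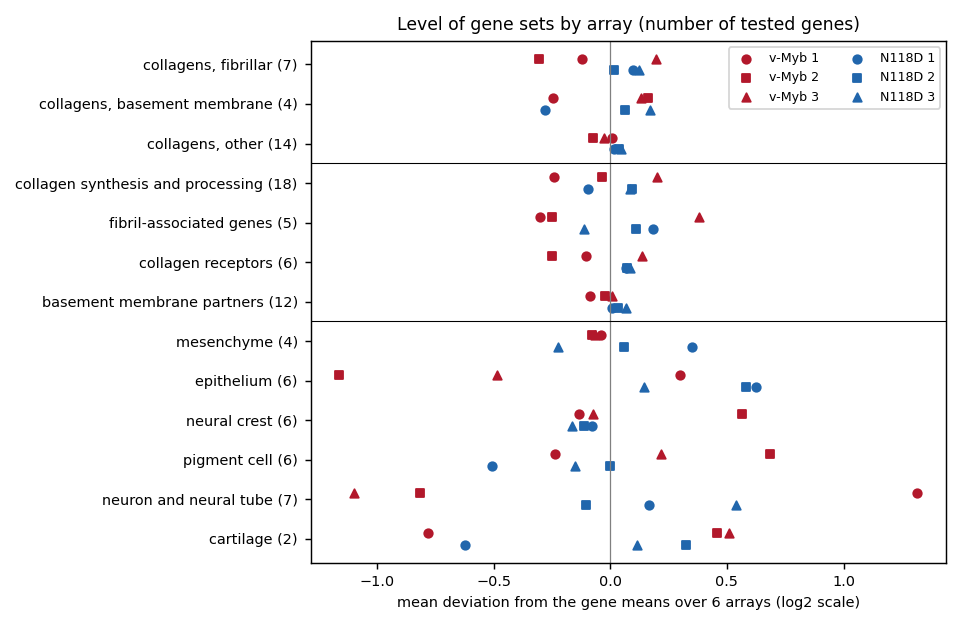
Mean deviation of the tested genes of a set from their own means over the 6 arrays (horizontal axis, log2 scale), with a point per array, red for v-Myb and blue for N118D, the symbol shape giving the replicate number. The upper rows are the 3 collagen classes, the middle rows the companion lists and the lower rows cell type markers. The fibrillar collagens run from -0.31 to 0.19 within the v-Myb group and the basement membrane collagens are lowest on both arrays numbered 1.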

How the data were processed

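RNA from 6 cultures was hybridised to an Affymetrix chicken array. The deposited values are log2, 1 for each probe set on each array. Per the submitters' processing notes, GCRMA and Partek 6.4 were used by the authors. Log2 was read from the values. GCRMA pulls dim probe sets towards a floor, which shrinks their differences. The table held 38535 probe sets. The 96 AFFX controls were left out, and 16526 with at least 4 on at least 3 arrays were tested with limma 3.58.1 in R 4.3.3 (lmFit and eBayes, group as the only term, two-sided, Benjamini-Hochberg over all tested probe sets, threshold 0.05). With 3 arrays against 3, exact permutation gives no p below 0.1. The fit was tested on simulated data.

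Gene symbols are those of the array's annotation table, some of them perhaps outdated, and 119 of 120 collagen probe sets had a gene ID in RefSeq's table (COL16A1 had the exception). Levels are not compared between probe sets. Collagen genes were named by list, by smallest p, by range and by disagreement between probe sets, and up to 5 genes per companion list by smallest p. The members and lists were chosen with earlier results of these data known. Alternatives varied the filter, normalization, moderation, weights and replicate block, used the mean of a gene's probe sets, and left out each array.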

Additional observations from a re-analysis of the deposited data

How the results depend on the processing

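No alternative that was run brought a probe set under an adjusted p of 0.05 (0 over the whole array and 0 of the collagens), and the smallest adjusted p of a collagen probe set in any of them was 0.495. Over all probe sets the smallest was 0.0553. Without a filter 83 of 120 collagen probe sets were lower, 24 of 31 fibrillar, 13 of 22 basement membrane and 46 of 67 other ones. Of the 120, 74 were under the minimum for testing, and no matching share over the whole array is given. The basement membrane median turned from 0.056 to -0.0074. That median took in the 14 basement membrane probe sets under the minimum, while the differences of the 8 tested ones stayed the same. With array weights 1 of 8 basement membrane probe sets was lower. Leaving out each array gave 1 to 6 lower basement membrane probe sets and medians of -0.22 to -0.061 for the collagens. In the same fits the median ran from -0.31 to -0.066 for the fibrillar probe sets and from -0.14 to -0.064 for the other types. With the replicate number as a block the unadjusted count was 1 collagen probe set and 666 of all probe sets against 315. Deviations of arrays with 1 number correlated at 0.40, 0.45 and -0.05, and at 0.39, 0.63 and 0.06 over the collagen probe sets. Of the N118D arrays, v-Myb replicate 3 correlated best with N118D replicate 2. The labels do not say that the numbers pair the samples, so the main fit did not use them. Any shift shared by arrays of 1 number is therefore part of its error.

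Of 24 collagen probe sets followed through the alternatives 13 changed sign in at least 1 of them, none having passed the test, and the cause was not tested. With array weights the differences were 0.26 for the dimmest tested COL4A2 probe set, 0.089 for COL6A2, 0.0012 for COL6A3 and -0.023 for COL8A1, and with quantile normalization 0.0016 for COL6A2. Leaving out arrays gave ranges of -0.25 to 0.023 for COL1A1, -0.17 to 0.023 for COL2A1, -0.21 to 0.081 and -0.041 to 0.34 for 2 probe sets of COL11A1, and -0.078 to 0.29 for COL4A1. For 3 probe sets of COL4A2 they were -0.045 to 0.23, -0.049 to 0.47 and -0.29 to 0.43. The ranges were -0.33 to 0.23 for COL6A2, -0.28 to 0.21 for COL6A3, -0.20 to 0.82 for COL8A1, -1.34 to 0.19 for COL14A1 and -0.30 to 0.90 for COL16A1. With 3 arrays per group, differences of the size seen in the fibrillar genes could not be told from 0.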
